A study of Mus musculus with 8 samples.

Results

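Solute carriers grouped as transporters of meningeal and arachnoid barrier cells were followed by name through the hypothalamic transcriptome of young mice. Not all are confined to these cells. The group holds 8 genes, Slc6a13, Slc6a20a, Slc22a6, Slc22a8, Slc22a2, Slc13a4, Slc13a3 and Slc47a1, of 55401 genes in the deposited table, and all 8 symbols matched. The members were selected on their names with the measured difference between PLX3397 and vehicle already known, so their values in that comparison are given as a description without a test. Differences between the sexes played no part in the rule and were tested.

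Hypothalami were collected at postnatal day 19 from pups gavaged from day 9 to day 15 with vehicle (4 pups) or with PLX3397 (4 pups), an inhibitor of the receptor CSF1R on which microglia depend for survival, which also blocks the kinases KIT and FLT3. Each group held 2 females and 2 males, called F1, F2, M1 and M2 in the labels, whose tissue field reads brain. The labels state no strain, genotype or transgene. The study addressed the role of microglia in the maturation of this brain region, and its title names AgRP neurons and perineuronal nets. The labels describe the samples as separate hypothalami, and p-values measure the spread between these samples.

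The meninges are layered sheets around the brain. Their outer leptomeningeal layer, the arachnoid barrier, is sealed by tight junctions, and together with the choroid plexus it separates cerebrospinal fluid from blood. Arachnoid barrier cells and the fibroblasts beside them carry transporters that also work in the kidney tubule, where they move amino acids, organic anions, organic cations, sulfate and dicarboxylates across the membrane. The labels do not say how much of the meninges stayed on the dissected tissue. In such bulk samples fewer cells of a type and less RNA per cell cannot be told apart.

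Total counts per library ran from 54115300 to 67487391. Levels are CPM (counts scaled to the library total with TMM factors) or, where genes are compared with each other, the deposited FPKM, which is scaled by gene length and library size. Of the 8 genes, 7 reached a mean of 0.5 FPKM and entered the fits over 16894 genes, and Slc22a2 did not. The microglial marker list of 12 genes summed to 312 to 325 CPM with vehicle and 23.8 to 50.2 CPM with PLX3397. Pituitary hormone and lineage genes (8 genes) summed to 3108 CPM in vehicle F1 and to 5.17 to 16.5 CPM in the other 7 libraries, and PLX3397 M2 had the lowest microglial sum, so fits and correlations of the members were also made without vehicle F1 and PLX3397 M2.

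Most of the genes lie beside related transporters on mm10. Slc6a13 (chr6:121300227-121337733, plus strand) has the betaine and GABA transporter gene Slc6a12 as its right-hand coding neighbour, 5342 bases away. Slc22a8 (chr19:8591254-8611834, plus strand) and Slc22a6 (chr19:8618039-8628299, plus strand) are direct neighbours with 6203 bases between them. Slc47a1 (chr11:61343401-61378345, minus strand) lies 540 bases from Slc47a2. Slc22a2 lies at chr17:12584132-12628488 on the plus strand. Slc13a4 (chr6:35267957-35308131, minus strand) and Slc13a3 (chr2:165405028-165473230, minus strand) have no family member beside them. Slc6a20a (chr9:123634770-123678885, minus strand) lies 2204 bases from its close copy Slc6a20b and overlaps 5 annotated genes, among them Ccr9 on the opposite strand.

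Near-identical sequence limits the count of Slc6a20a. Of the 50-base words in its transcripts, 15.3% also occur in Slc6a20b. The labels do not say if strand was kept, so reads of Slc6a20a and its opposite-strand neighbours, or of Slc13a3 and its antisense gene Gm14437, could not be separated.

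The start regions of 3 members are shown because the values below turn on them, Slc6a13 and Slc6a20a for treatment and Slc6a13 and Slc13a4 for sex. Each runs from 250 bases before to 50 after the annotated start (RefSeq, GRCm38.p6), at chr6:121300038-121300337 on the plus strand, chr9:123678783-123679082 on the minus strand and chr6:35308077-35308376 on the minus strand. Capitals mark a GC box (GGGCGG, or CCGCCC read from the other strand) and the core of the TEAD motif (GGAATG).
Slc6a13: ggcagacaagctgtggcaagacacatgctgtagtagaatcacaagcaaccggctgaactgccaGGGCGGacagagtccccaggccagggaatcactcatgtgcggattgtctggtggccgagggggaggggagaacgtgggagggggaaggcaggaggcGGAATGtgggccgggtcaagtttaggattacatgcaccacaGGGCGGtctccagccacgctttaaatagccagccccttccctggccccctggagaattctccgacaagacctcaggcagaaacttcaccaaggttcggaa
Slc6a20a: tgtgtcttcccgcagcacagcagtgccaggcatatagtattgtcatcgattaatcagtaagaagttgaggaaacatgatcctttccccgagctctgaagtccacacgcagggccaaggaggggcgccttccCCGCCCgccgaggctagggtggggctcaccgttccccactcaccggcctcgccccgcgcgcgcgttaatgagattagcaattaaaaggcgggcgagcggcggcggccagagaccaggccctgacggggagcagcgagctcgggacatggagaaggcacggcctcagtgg
Slc13a4: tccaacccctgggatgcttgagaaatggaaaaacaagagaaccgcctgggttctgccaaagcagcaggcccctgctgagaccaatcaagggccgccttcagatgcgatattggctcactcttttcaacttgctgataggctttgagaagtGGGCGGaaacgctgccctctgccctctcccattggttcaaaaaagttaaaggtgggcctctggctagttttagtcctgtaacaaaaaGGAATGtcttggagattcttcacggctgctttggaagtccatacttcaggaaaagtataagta

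Of the 8 members, 7 had an entry in the promoter table, with 9 start windows in all (numbered 1 to 3 for Slc6a13), and Slc47a1 had none. The TEAD core stood in 5 of the 9 windows, one each of Slc6a13, Slc22a6, Slc22a8, Slc22a2 and Slc13a4, against 14.7% of all 32851 windows of the same length, both strands searched. It began at position -91 from the start in Slc6a13, -102 in Slc22a6, -98 in Slc22a8, -166 in Slc22a2 and -13 in Slc13a4. The 3 organic ion transporters are shown as 40 bases around the match, in capitals, on the strand that reads GGAATG, at chr19:8617877-8617916 (minus strand), chr19:8593067-8593106 (minus strand) and chr17:12584006-12584045 (plus strand).
Slc22a6: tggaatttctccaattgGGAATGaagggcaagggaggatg
Slc22a8: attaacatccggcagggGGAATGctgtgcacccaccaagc
Slc22a2: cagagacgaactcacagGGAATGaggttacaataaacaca

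A GC box was found in 4 of the 9 windows, 1 each of Slc6a13, Slc6a20a, Slc13a4 and Slc13a3, against 35.7% of all windows. The nuclear receptor half-site AGGTCA occurred in 1 window, window 3 of Slc6a13, against 16.3%. No window held the forkhead letters GTAAACA (3.65% of all), the T-box letters AGGTGT (13.7%) or the HNF1 consensus (0.00913%). The Slc6a20a window held 25 CpG dinucleotides and 62.3% G and C, and the Slc13a4 window 6 and 48.7%, against medians of 7 and 52.7% over all windows. These matches describe letters only.

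Per length, the organic anion carrier gene Slc22a8 had the highest mean level in vehicle hypothalami, at 8.12 ± 1.67 FPKM (SD, n = 4). Slc6a20a followed at 7.29 ± 1.09 FPKM and Slc6a13 at 6.33 ± 2.15 FPKM. Slc13a3 (5.13 ± 0.990 FPKM), Slc13a4 (4.28 ± 1.32 FPKM), Slc47a1 (3.77 ± 1.17 FPKM) and Slc22a6 (2.65 ± 0.898 FPKM) came next. The ranges of all neighbours in this order overlapped except at its end, where Slc22a6 stood apart from Slc22a2 at 0.403 ± 0.262 FPKM. Within single vehicle libraries, Slc13a3 was above Slc13a4, Slc13a4 above Slc47a1 and Slc47a1 above Slc22a6 in 4 of 4. Slc22a8, Slc6a20a and Slc6a13 were each above the next gene in 3 of 4. In PLX3397 libraries the first 3 places read Slc6a20a (12.5 ± 1.30 FPKM), Slc6a13 (10.3 ± 2.42 FPKM) and Slc22a8 (8.53 ± 0.660 FPKM), and the lower 5 kept their order. Slc22a8 was then above Slc13a3 without overlap, as Slc22a6 was above Slc22a2. The summed level of the 8 genes was 38.0 ± 8.92 FPKM in vehicle and 48.2 ± 6.87 FPKM in PLX3397 libraries, with ranges that overlap.

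**Figure D1:**
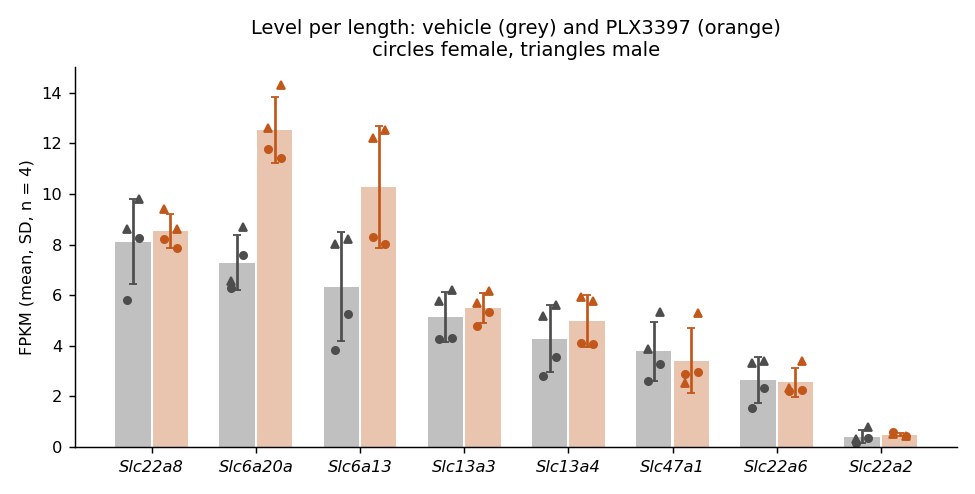
Deposited FPKM of the 8 transporter genes (bars, mean; error bars, SD, n = 4) in vehicle (grey) and PLX3397 (orange) hypothalami, with each library as a circle (female) or triangle (male). Slc22a8 was the highest in vehicle at a mean of 8.12 FPKM and Slc6a20a in PLX3397 at 12.5 FPKM, while Slc22a2 stayed below 1 FPKM in all libraries.

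Among the amino acid carriers, Slc6a20a, which takes up proline and other imino acids with sodium, measured 28.8, 35.4, 30.7 and 40.7 CPM in vehicle F1, F2, M1 and M2. The PLX3397 libraries measured 55.4, 53.5, 58.2 and 67 CPM in the same order. All 4 PLX3397 libraries lay above all 4 vehicle libraries, and Slc6a20a was the only one of the 7 tested members of which this was so (838 of 16894 genes, or 4.96%, had that separation). The group means were 33.9 ± 5.31 and 58.5 ± 5.97 CPM (SD, n = 4), a log2 fold change of 0.79 ± 0.11 (SE) that was 0.67 ± 0.12 without vehicle F1 and PLX3397 M2. Its copy Slc6a20b, too low to be tested, had a mean of 2.42 ± 0.788 CPM with vehicle and of 3.66 ± 1.05 CPM with PLX3397.

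Slc6a13 encodes a sodium-dependent transporter of GABA and taurine, known from the meninges, liver and kidney. Its vehicle libraries F1, F2, M1 and M2 gave 12.5, 17.4, 26.6 and 27.4 CPM, and the PLX3397 libraries 27.8, 26.8, 40.1 and 41.6 CPM. Within each sex both PLX3397 libraries were above both vehicle libraries, but the PLX3397 females and the vehicle males covered the same levels. The means were 21.0 ± 7.24 and 34.1 ± 7.85 CPM, a log2 fold change of 0.73 ± 0.11 with sex in the model and of 0.61 ± 0.07 without vehicle F1 and PLX3397 M2. Slc6a20a and Slc13a4 had the same separation within each sex, as had 7.62% of all genes tested.

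Slc6a13 and Slc13a4 varied in step within each treatment group, but not between the groups. The ratio of their FPKM was 1.36, 1.48, 1.55 and 1.47 in the vehicle libraries (F1, F2, M1, M2), then 2.02, 1.98, 2.05 and 2.17 in the PLX3397 libraries. Its ranges did not overlap between treatments, which is a description, and no share over other gene pairs is given. With vehicle the sexes overlapped in part, and with PLX3397 both males (2.05 and 2.17) were above both females (2.02 and 1.98). The ratio of Slc6a13 to its genomic neighbour Slc6a12 was 2.66 ± 0.351 in vehicle and 3.39 ± 0.117 in PLX3397 libraries.

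The organic anion exchangers Slc22a6 and Slc22a8, which take up drugs and metabolites against intracellular dicarboxylates, overlapped between treatments. Slc22a6 had 6.85, 10.5, 15.1 and 15.6 CPM in the vehicle libraries (F1, F2, M1, M2) and 10.2, 10.3, 10.6 and 15.6 CPM in PLX3397 libraries. Slc22a8 had 25.6, 36.8, 38.4 and 43.8 CPM with vehicle and 37.1, 35.3, 41.6 and 38.5 CPM with PLX3397. The means were 12.02 ± 4.14 and 11.7 ± 2.63 CPM for Slc22a6 and 36.2 ± 7.67 and 38.15 ± 2.68 CPM for Slc22a8. Their log2 fold changes were 0.00 ± 0.18 and 0.09 ± 0.12, or -0.28 ± 0.14 and 0.00 ± 0.08 without vehicle F1 and PLX3397 M2. The sign for Slc22a6 turned in 10 of 20 alternative fits.

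The organic cation pair also overlapped between treatments. Slc47a1, a proton-coupled exporter of organic cations, had 9.92, 12.7, 14.98 and 20.7 CPM in the vehicle libraries (F1, F2, M1, M2) and 11.3, 11.5, 9.64 and 20.6 CPM in PLX3397 libraries, with M2 highest in both groups (log2 fold change -0.12 ± 0.24, or -0.52 ± 0.22 without vehicle F1 and PLX3397 M2). Slc22a2, an organic cation uptake carrier, rested on 27 to 132 reads per library. It had 0.459, 1.01, 0.942 and 2.20 CPM with vehicle and 1.65, 1.2, 1.47 and 1.26 CPM with PLX3397. Its log2 fold change, from a fit without the level filter, was 0.38 ± 0.40.

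Slc13a4 moves sulfate and Slc13a3 moves dicarboxylates, each with sodium, and Slc13a3 is also known from astrocytes. Slc13a4 had 14.3, 18.4, 26.6 and 29.2 CPM in the vehicle libraries (F1, F2, M1, M2) and 21.5, 21.1, 30.4 and 29.9 CPM in PLX3397 libraries, a log2 fold change of 0.25 ± 0.10. Slc13a3 had 25.0, 25.7, 34.3 and 37.0 CPM with vehicle and 28.7, 31.9, 33.5 and 36.85 CPM with PLX3397, a log2 fold change of 0.12 ± 0.08. Without vehicle F1 and PLX3397 M2 these fold changes were 0.17 ± 0.08 and 0.08 ± 0.11. Both genes overlapped between treatments, and both split by sex.

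Over the 7 members in the fit, the log2 fold changes ran from -0.12 to 0.79 with a median of 0.12, against 0.00 over all genes tested, and without vehicle F1 and PLX3397 M2 the median was 0.08.

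**Figure D2:**
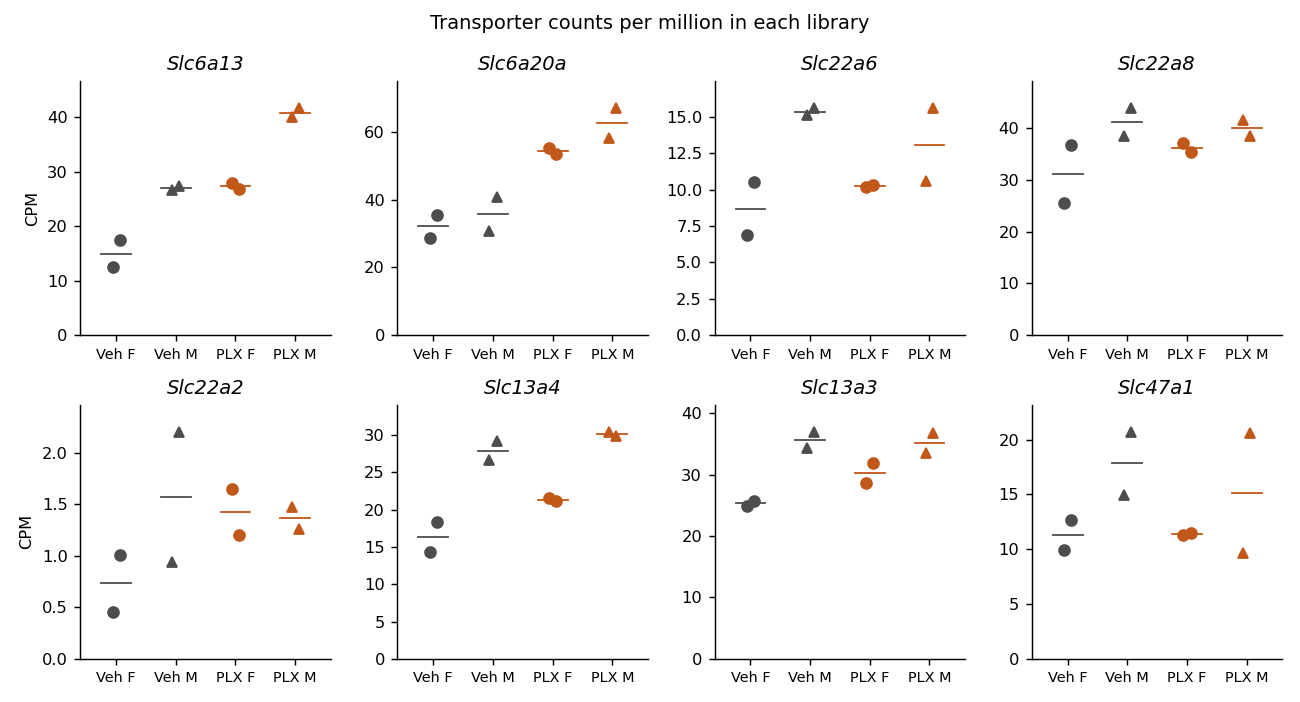
CPM of each transporter in vehicle (grey) and PLX3397 (orange) libraries, split into females (circles) and males (triangles), with a line at the mean of each pair and a linear axis from 0. The 4 PLX3397 libraries of Slc6a20a (53.5 to 67 CPM) lay above its vehicle libraries (28.8 to 40.7 CPM), and the male pairs of Slc6a13 and Slc13a4 lay above the female pairs in both treatments.

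The fitted level was higher in males than in females for all 7 tested members, and none passed edgeR's test over all genes. Slc6a13 averaged 14.96 CPM in vehicle females against 27.0 CPM in vehicle males, and 27.3 against 40.9 CPM in PLX3397 females and males. Both males were above both females in each treatment group for 5 of the 7 tested members (Slc6a13, Slc22a6, Slc22a8, Slc13a4 and Slc13a3), a separation that 3.08% of all genes tested had. For Slc6a20a the sexes were separate with PLX3397 (17.5% of all genes tested) and overlapped with vehicle.

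The male minus female log2 difference was 0.71 ± 0.11 for Slc6a13 (edgeR adjusted p = 0.306) and 0.64 ± 0.10 for Slc13a4 (adjusted p = 0.306). For Slc13a3 it was 0.35 ± 0.08 (edgeR adjusted p = 0.904) and for Slc22a6 0.59 ± 0.19 (adjusted p = 0.933). These 4 had an unadjusted p below 0.05, all with the higher level in males, where 2.63% of all genes tested did so. Slc47a1 (0.53 ± 0.24), Slc22a8 (0.27 ± 0.12) and Slc6a20a (0.18 ± 0.11) all had an edgeR adjusted p of 0.933. Slc22a2 gave 0.51 ± 0.40 in the fit without the level filter.

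By edgeR 0 of 7 members were called between the sexes, and 0.0592% of all genes tested were. DESeq2 called 3 of the 7, Slc6a13 (adjusted p = 3.17e-06), Slc13a4 (adjusted p = 6.01e-06) and Slc13a3 (adjusted p = 0.0411), where it called 52 of all 16894 genes (0.308%), and limma-trend called 0. Ordered by edgeR p among 16894 genes, Slc13a4 was at place 13, Slc6a13 at 14 and Slc13a3 at 45. All 7 differences were positive with a median of 0.53, where 50.8% of all genes tested were positive with a median of 0.00.

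Vehicle F1, the library with pituitary RNA, was the lowest vehicle library for 8 of 8 members, and vehicle M2 the highest for 8 of 8. Without vehicle F1, the difference for Slc6a13 was 0.60 ± 0.06 and passed in edgeR (adjusted p = 0.0348), and that for Slc13a4 was 0.54 ± 0.06 (adjusted p = 0.126). Without both vehicle F1 and PLX3397 M2 none of the 7 passed in edgeR, 3 had an unadjusted p below 0.05, all 7 stayed positive and the median was 0.30. The differences were then 0.59 ± 0.07 for Slc6a13, 0.56 ± 0.08 for Slc13a4, 0.31 ± 0.11 for Slc13a3 and 0.30 ± 0.14 for Slc22a6. They were 0.18 ± 0.08 for Slc22a8, 0.13 ± 0.22 for Slc47a1 and 0.05 ± 0.12 for Slc6a20a.

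The treatment effect did not pass a test of difference between the sexes for any member. By edgeR 0 of 7 members were called, 0 had an unadjusted p below 0.05, and DESeq2 and limma-trend also called 0. Of all genes tested, edgeR called 0.077%, and 6.01% had an unadjusted p below 0.05. The difference of log2 fold changes, males minus females, was -0.27 ± 0.21 for Slc6a13, 0.05 ± 0.23 for Slc6a20a and -0.27 ± 0.18 for Slc13a4. It was -0.28 ± 0.13 for Slc13a3, -0.47 ± 0.35 for Slc22a6, -0.25 ± 0.24 for Slc22a8 and -0.25 ± 0.50 for Slc47a1. These values moved widely when 1 library was left out. Without vehicle F1 they were -0.05 for Slc6a13, -0.10 for Slc13a4, -0.19 for Slc22a6 and -0.01 for Slc22a8, and without vehicle F2 they were -0.53, -0.46, -0.81 and -0.54. Slc47a1 ran from -0.89 without PLX3397 M2 to 0.20 without PLX3397 M1, and Slc6a20a from -0.13 without vehicle M1 to 0.27 without vehicle M2. The median of the 7 was -0.27, and -0.09 without vehicle F1 and PLX3397 M2.

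**Figure D3:**
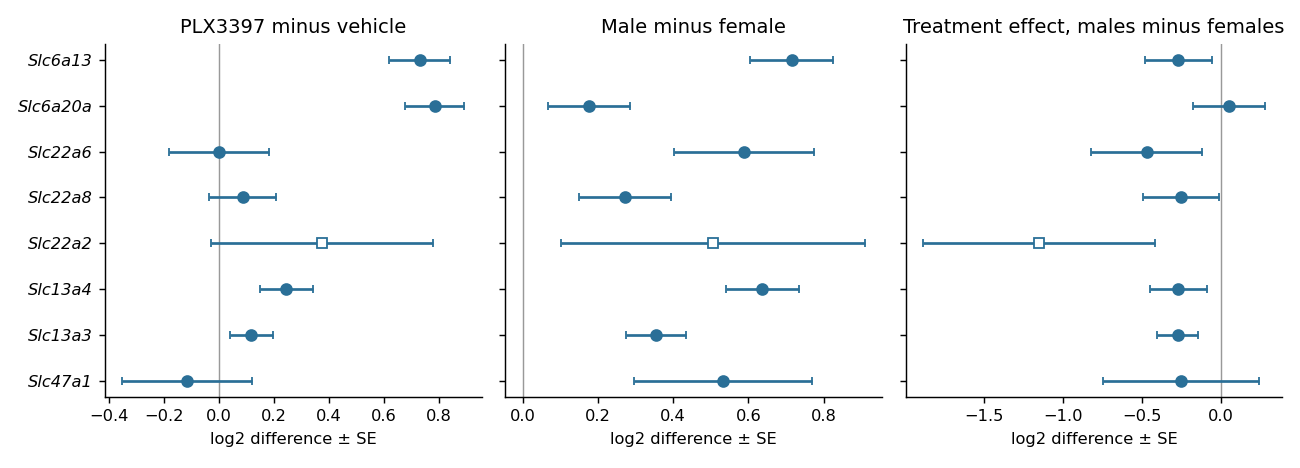
Fitted log2 differences with standard errors for each transporter, for PLX3397 minus vehicle (left), male minus female (middle) and the treatment effect in males minus that in females (right), where an open square marks Slc22a2 from the fit without a level filter. Slc6a20a and Slc6a13 stood highest at left (0.79 and 0.73), and all points in the middle lay above 0.

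The members also varied together across the libraries, with sex left in the values. After the mean of each treatment group was subtracted from log2(CPM + 0.5), the Pearson correlations over the 8 libraries were positive for 21 of 21 pairs of tested members, from 0.57 to 0.995 with a median of 0.80. Slc6a13 and Slc13a4 formed the highest pair at 0.995. These points share library, sex and depth, and vehicle F1 was low for all members. Sex was not subtracted, and 5 of the 7 members had both males above both females in each treatment group. No value over pairs of all tested genes is given for comparison. Over the 6 libraries other than vehicle F1 and PLX3397 M2, a set chosen after seeing the data, all 21 stayed positive, from 0.07 (Slc6a20a with Slc22a6) to 0.995 (Slc6a13 with Slc13a4), with a median of 0.69.

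Among all tested genes with a standard symbol, those most like Slc6a13 by the same measure over 8 libraries were Slc13a4 (0.995), Slc6a12 (0.987) and Slc16a6 (0.972), a monocarboxylate transporter family gene. Slc13a4 had the same neighbours, with Slc6a13 (0.995), Slc6a12 (0.984) and Slc16a6 (0.977). Slc13a3 was most like Apod (0.998), which encodes a lipid-binding apolipoprotein, the astrocytic glutamate transporter gene Slc1a3 (0.980) and the connexin gene Gjb6 (0.980). Slc22a8 was most like Pofut1 (0.995), Tgfa (0.992) and Arhgef26 (0.977), and Slc22a6 most like Efnb3 (0.979), Fem1a (0.977) and Heatr6 (0.976). For Slc6a20a the nearest were Hnrnpa0 (0.987), Prss50 (0.973) and Tshz3 (0.971), and for Slc47a1 Aagab (0.987) and Gpc1 (0.986). All of these are the highest values found in a search of many genes over only 8 libraries. How high such a search reaches for unrelated genes was not tested.

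Related carriers and barrier pumps outside the group were read from a list of 34 genes, of which 26 were tested. It was chosen with earlier results of these data known, so its calls for treatment are no independent test. By edgeR 0 rose and 4 fell with PLX3397, where 2.14% of all genes tested were called in either direction. The 26 had a median log2 fold change of 0.02 against 0.00 over all genes. Slco2b1, an organic anion carrier, fell by 1.34 on the log2 scale (SE 0.13, adjusted p = 0.00479), from 22.1 ± 2.20 to 8.72 ± 1.39 CPM. Slc22a23 fell by 0.53 (adjusted p = 0.00741), Slc22a17 by 0.63 (adjusted p = 0.014) and the taurine transporter gene Slc6a6 by 0.22 (adjusted p = 0.0227).

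Slco2b1 and Slc22a23 passed in all 8 fits that leave out 1 library, Slc22a17 in 4 and Slc6a6 in 2. Without vehicle F2, vehicle M1, vehicle M2 or PLX3397 M1, 2 of the 4 passed in each case, and 2 passed when vehicle F1 and PLX3397 M2 were both left out. Of the 12 microglial markers 9 fell with treatment in these libraries (among them Csf1r, P2ry12 and Tmem119, median of the 12 -3.81), and their part in the lower values of Slco2b1 and the other 3 was not tested. Slc6a12, the neighbour of Slc6a13, had 8.68 ± 3.81 CPM with vehicle and 10.6 ± 2.41 CPM with PLX3397 (0.36 ± 0.18, adjusted p = 0.394). Its sex difference was 0.82 ± 0.18 (edgeR adjusted p = 0.904), with both males above both females in each treatment group.

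Leptomeningeal and arachnoid barrier markers outside the group were detected and tested, 26 of 26. The list was chosen with earlier results of these data known, so its calls and p-values for treatment describe these libraries and are no independent test. By edgeR 4 rose and 0 fell with PLX3397, where 0.308% of all genes tested rose, with 19 of 26 positive (49.4% of all genes tested) and a median log2 fold change of 0.20. Lama1, a laminin chain gene of basement membranes, rose from 17.7 ± 1.01 to 31.5 ± 5.89 CPM (0.82 ± 0.10, adjusted p = 0.00935). Itih5, an inter-alpha-trypsin inhibitor gene, rose from 65.8 ± 8.52 to 102 ± 9.23 CPM (0.64 ± 0.10, adjusted p = 0.0247). The mesenchymal transcription factor gene Tbx18 rose by 1.13 ± 0.18 (adjusted p = 0.0273), and Aldh1a2, which makes retinoic acid, by 0.35 ± 0.07 (adjusted p = 0.0488).

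Lama1 passed in all 8 fits that leave out 1 library, Itih5 in 3, Tbx18 in 2 and Aldh1a2 in 0. The count was 1 without vehicle F2, vehicle M1, PLX3397 F2 or PLX3397 M2, 2 without vehicle M2, and 1 when vehicle F1 and PLX3397 M2 were both left out. All PLX3397 libraries were above all vehicle libraries for 7 of the 26, where 4.96% of all genes tested had that separation. Lama1, Itih5 and Tbx18 were among them. The other 4, which did not pass, were Dcn (0.87 ± 0.20, adjusted p = 0.0852) and Col3a1 (0.53 ± 0.15, adjusted p = 0.139), both of the extracellular matrix, the growth factor gene Igf2 (0.57 ± 0.15, adjusted p = 0.13) and Cemip (0.15 ± 0.06, adjusted p = 0.303). Cldn11, a tight junction gene of arachnoid barrier cells and also of oligodendrocytes, had a log2 fold change of -1.25 ± 0.28 (adjusted p = 0.0794). All its PLX3397 libraries lay below all its vehicle libraries. Lum (1.17 ± 0.32, adjusted p = 0.134), Islr (0.39 ± 0.11, adjusted p = 0.135), Aldh1a1 (0.45 ± 0.15, adjusted p = 0.212) and Ptgds (0.35 ± 0.13, adjusted p = 0.23) were positive and did not pass. In either direction, 13 of the 26 had an unadjusted p below 0.05 by edgeR, against 16.2% of all genes tested. Some listed markers changed little, with Cdh1 at 0.16 ± 0.21 (adjusted p = 0.764), Dpp4 at 0.08 ± 0.20 (adjusted p = 0.882) and Crabp2 at 0.02 ± 0.20 (adjusted p = 0.976). Ngfr (-0.76 ± 0.35, adjusted p = 0.346) and Col1a1 (-0.32 ± 0.17, adjusted p = 0.415) were negative and did not pass.

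The markers' differences between the sexes were mostly positive as well. Of 26 markers 25 had a positive male minus female difference (50.8% of all genes tested), with a median of 0.28 against 0.00 over all genes. With males higher, 8 had an unadjusted p below 0.05 by edgeR (2.63% of all genes tested). EdgeR and limma-trend called 0, and DESeq2 called 3 (0.308% of all genes tested). Aldh1a2 (0.46 ± 0.07, edgeR adjusted p = 0.252) and the transcription factor gene Foxc1 (0.80 ± 0.12, edgeR adjusted p = 0.306) stood at places 12 and 15 by p, either side of Slc13a4 and Slc6a13, and were singled out after their values were seen. Both males were above both females in each treatment group for 5 of the 26 (3.08% of all genes tested), Aldh1a2, Foxc1, Ptgds, Ogn and Islr. Astrocyte markers (8 of 8 positive, median 0.08) and mural cell markers (8 of 10, median 0.16) leaned the same way, against 50.8% of all genes tested. So did 7 of 10 endothelial, 5 of 6 choroid plexus and 4 of 5 dura markers. Other lists did not, with 6 of 12 neuron and hypothalamus and 4 of 9 tanycyte and ependymal markers positive. For border macrophages it was 2 of 4, for microglia 2 of 12 and for the pituitary 0 of 7. An unadjusted p below 0.05 with males higher was found for 1 astrocyte and 3 mural cell markers, against 2.63% of all genes tested. EdgeR, DESeq2 and limma-trend called 0 of either list. Their part in the transporters' sex differences was not tested.

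Library by library, the mean log2(CPM + 0.5) of the 8 transporters was 3.5, 3.91, 4.17 and 4.45 in the vehicle libraries (F1, F2, M1, M2), then 4.16, 4.11, 4.31 and 4.52 in PLX3397 libraries. The same mean of the 26 markers was 4.27, 4.20, 4.51 and 4.66 in vehicle and 4.65, 4.47, 4.62 and 4.77 in PLX3397 libraries. In both lists the vehicle females were the lowest 2 libraries and PLX3397 M2 the highest. The part of the markers' levels in the transporter values was not tested.

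**Figure D4:**
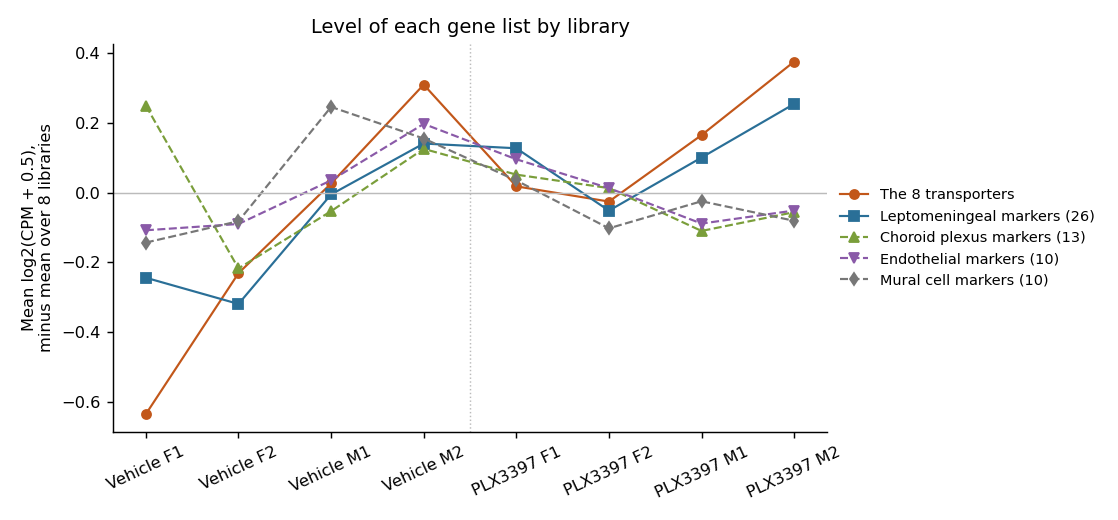
Mean log2(CPM + 0.5) of 5 gene lists in each library, each shown as the difference from its own mean over the 8 libraries, with vehicle left and PLX3397 right of the dotted line. Vehicle F1 and F2 were lowest for the transporters (3.5 and 3.91 before centring) and for the leptomeningeal markers (4.27 and 4.20).

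By edgeR 1 marker of the choroid plexus, endothelial, mural and dura lists passed. The choroid plexus also uses several of these transporters, and 6 of its 13 markers were tested, with 0 called by edgeR, DESeq2 or limma-trend and 1 with an unadjusted p below 0.05. Ttr, its hallmark transcript, had 2.68 ± 1.36 CPM with vehicle and 2.50 ± 0.336 CPM with PLX3397, and the list summed to 49.97 to 67.3 CPM and 54.04 to 68.5 CPM. Most of that sum came from Prlr, Kl and Clic6, with vehicle means of 18.7, 14.9 and 12.9 CPM. Of 10 endothelial markers 1 rose (Flt1, 0.25, adjusted p = 0.0464), from 43.4 ± 1.82 to 51.5 ± 1.24 CPM, and without vehicle F1 edgeR called 0 of the 10, with 5 at an unadjusted p below 0.05. DESeq2 called 3 of the 10, 2 higher and 1 lower, and limma-trend 0. Mural cell markers had 0 of 10 called by edgeR, 4 with an unadjusted p below 0.05 and 1 called by DESeq2 and by limma-trend. Dura markers had 0 of 5 called by each of the 3 tools and 1 with an unadjusted p below 0.05 by edgeR. Of all 16894 genes tested, 16.2% had an unadjusted p below 0.05 by edgeR with all 8 libraries, and edgeR called 2.14%. DESeq2 called 1097 of them, limma-trend 369, and edgeR 262 without vehicle F1. These lists were also chosen with earlier results of these data known. The 4 tested markers of border macrophages, which sit in the meninges and around vessels, all fell (median -1.74). The log2 fold changes were -3.71 for Mrc1 (adjusted p = 0.00806), -1.94 for Stab1 (adjusted p = 0.00518), -1.54 for Cbr2 (adjusted p = 0.0407) and -0.55 for Maf (adjusted p = 0.00927).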

How the data were processed

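Whole-number counts per gene and FPKM values were deposited by the authors side by side in a single table, per the file headers. Without roles, the submitters' processing notes list mm10, limma, DESeq2, StringTie, HISAT2 and bcl2fastq 2.0. The sources used here do not name the counting tool or annotation. The 8 genes were matched by symbol, and the members and all gene lists were chosen with earlier results of these data known.

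Counts were tested with edgeR 4.0.16 (R 4.3.3), by a two-sided quasi-likelihood F-test after TMM scaling, for the 16894 genes averaging 0.5 FPKM or more, with p-values adjusted by Benjamini-Hochberg over all of them and called below 0.05. Treatment and sex entered together, and the difference of the treatment effect between sexes came from a model of 4 groups. Standard errors are |log2 fold change| over the root of F. Scripts were tested on simulated data. Alternatives used DESeq2 1.42.0, limma-trend (limma 3.58.1, pseudocounts 0.1, 0.5 and 1), other filters, scalings and dispersion settings, no covariate, a replicate block and fits without libraries. Named genes are all members, for each list those that passed and otherwise up to 4 with the smallest p or the highest level (others are named for a count or a marker role, after their values were seen), and for each tested member the 3 genes most like it, and some genes within this rule are not reported here. A count of 0 allows 3 counts, or 0.0449 to 0.0554 CPM, which covers counting error only. Every pair of libraries within a treatment group differed by more than sampling noise.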

Additional observations from a re-analysis of the deposited data

Results flagged for a closer look

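In the PLX3397 group, the male library M2 stood apart from the other 3 for 2 transporters, by Dixon's criterion for the gap between the highest value and its nearest neighbour. Slc22a6 measured 15.59 CPM there, against 10.2 to 10.6 CPM in the other 3 libraries. Slc47a1, the organic cation exporter, measured 20.57 CPM there, against 9.64 to 11.5 CPM. Of 16 groups of 4 libraries examined, these 2 exceeded the criterion, and chance does so in about 1 of 20 groups.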

How the results depend on the processing

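PLX3397 against vehicle called 362 genes, and DESeq2 called 1097, the replicate block 79 and the fit without vehicle F1 and PLX3397 M2 123. Fits without 1 library each called 138 (without vehicle M1) to 361. Members called between sexes numbered 0, with 3 by DESeq2 and 0 to 1 in fits without 1 library. Related transporters called numbered 4, with 1 under the replicate block (same-numbered libraries as pairs), 2 without vehicle F1 and PLX3397 M2 and 2 to 4 without 1 library. Leptomeningeal markers called numbered 4, with 10 by DESeq2 (9 higher and 1 lower) and 1 under the replicate block. They numbered 1 without vehicle F1 and PLX3397 M2 and 1 to 4 without 1 library. The cause of these shifts was not tested.

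The treatment difference between sexes turned sign for Slc6a20a (-0.13 to 0.27 without 1 library each), Slc47a1 (-0.89 to 0.20) and, without vehicle F1 and PLX3397 M2, Slc22a8 (0.04693). The treatment effect turned sign in 10 of 20 alternatives for Slc22a6 (-0.28 to 0.15), 2 for Slc47a1 (-0.52 to 0.09) and 1 for Slc22a8 (-0.03 without vehicle F1). Correlations of same-numbered deviations were 0.08, 0.10, 0.08 and 0.03 (F1, F2, M1, M2). Between libraries of the same sex with different numbers they were 0.042 and -0.007 for females and 0.025 and 0.088 for males. These values do not settle if the numbers mark pairs, and the main fit did not take them as pairs. Sex cannot be fitted beside that block. Slc22a2, at 27 to 132 reads, is the least precise.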
